A study of Mus musculus with 32 samples.

Results

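The genes described here are 41 genes of the translation machinery: the factors that start a protein chain on the ribosome, lengthen it and release it. They were taken by symbol from a table of 34223 genes, and they fall into 8 groups by role: start selection (3 genes), eIF2 (2), eIF2B (5), eIF3 (13), eIF4 with the proteins that link the cap to the tail (8), subunit joining (3), elongation (5) and release (2). All 41 are annotated as protein coding, and all 41 passed the filter on low values that left 15559 genes to test. The samples were 32 wild-type mouse embryos, each sequenced alone as poly(A) RNA at the late 2-cell stage, 28 h after fertilization in vitro. Every embryo had received mRNA for a histone H3.3-GFP fusion, and embryos showing GFP were kept. With it, 16 embryos received an antisense oligonucleotide containing locked nucleic acid against tRFValCAC, a fragment of a valine tRNA that the series title calls enriched in sperm (Val_LNA), and 16 received a scramble oligonucleotide (Ctrl_LNA). Comparing the groups addresses which messages change in level once that fragment is targeted.

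Translation starts when eIF2 brings the initiator tRNA to the small ribosomal subunit, eIF3 holds the initiation complex together, and the eIF4 proteins load the subunit onto a capped message and unwind its leader. eIF5B then joins the large subunit, the elongation factors eEF1A and eEF2 deliver aminoacyl-tRNA and move the ribosome along, and eRF1 with eRF3 ends the chain at a stop codon. In the mouse embryo of this stage, messages stored in the egg are being cleared while the embryo's own genome is switched on, so the message of a factor can be stored, newly made, or both.

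In the comparison of the groups by limma, Eif5b and Etf1, which encode eIF5B and eRF1, fell in Val_LNA. Eif4g1 and Eif3h, which encode the eIF4G scaffold and a subunit of eIF3, rose. Tests on read counts, edgeR and DESeq2, called both falls but neither rise. A value is the authors' normalised count, a gene's reads divided by the size factor of its embryo. Calls are genes with an adjusted p under 0.05 in limma, with Benjamini-Hochberg adjustment over all 15559 genes. The log2 fold change is Val_LNA minus Ctrl_LNA on log2(normalised count + 1). Adding 1 shrinks differences between low counts, yet the value can exceed the log2 ratio of mean counts where some embryos lie near 0. For Eif3h it was 2.53 against a ratio of 0.95, and for Eif5b -1.03 against -1.17. By this rule 2 of the 41 factors were higher (0.881% of all genes tested were), 2 were lower (1.31%), and 37 did not pass. An unadjusted p under 0.05 was reached by 9 factors, and by 14.7% of all genes. Separate matings or days are not recorded for the embryos in the labels, so each p-value is set against the spread among these 32 embryos, which may be partly technical.

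Total reads per embryo lay between 2592925 and 6259870, with a mean of 4392531 ± 947194 for Val_LNA and of 4837221 ± 686052 for Ctrl_LNA (SD, n = 16 each). One control embryo, Ctrl_LNA 48, stood apart: reads fell on 7276 genes there, against 16687 to 20200 in the other 31 embryos. It had the highest control value for 13 of the 41 factors (31.7%; 15% of all genes tested) and the lowest for 17 (41.5%; 41.1% of all genes tested). Among its highest were Eif5b and Etf1, and among its lowest Eif3h and Eif4b, so the called factors, and others that it moved, are given with and without it. Without this embryo, limma called 3 factors higher (Eif4b, Eif4g1 and Eif3h; 1.57% of all genes) and 3 lower (Eif5b, Etf1 and Eif3j1; 2.63%). All 8 listed markers of the 2-cell embryo, such as the Zscan4 genes, were detected, with a median summed count of 7337 in Val_LNA (4141 to 26990) and 4917 in Ctrl_LNA (2162 to 24230), and the part of that difference in the results was not tested. The summed count of 10 markers of cumulus and granulosa cells had medians of 606 and 604. Nearly all of it was Amhr2, and the medians of Has2, Ptx3, Foxl2, Cyp19a1, Fshr, Lhcgr and Cyp11a1 were 0 in both groups. Tnfaip6 had medians of 23.2 in Val_LNA and 1.98 in Ctrl_LNA, and Star had 2.43 and 10.8. These differences were not tested. In a whole embryo, fewer cells and less RNA per cell cannot be told apart.

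**Figure D1:**
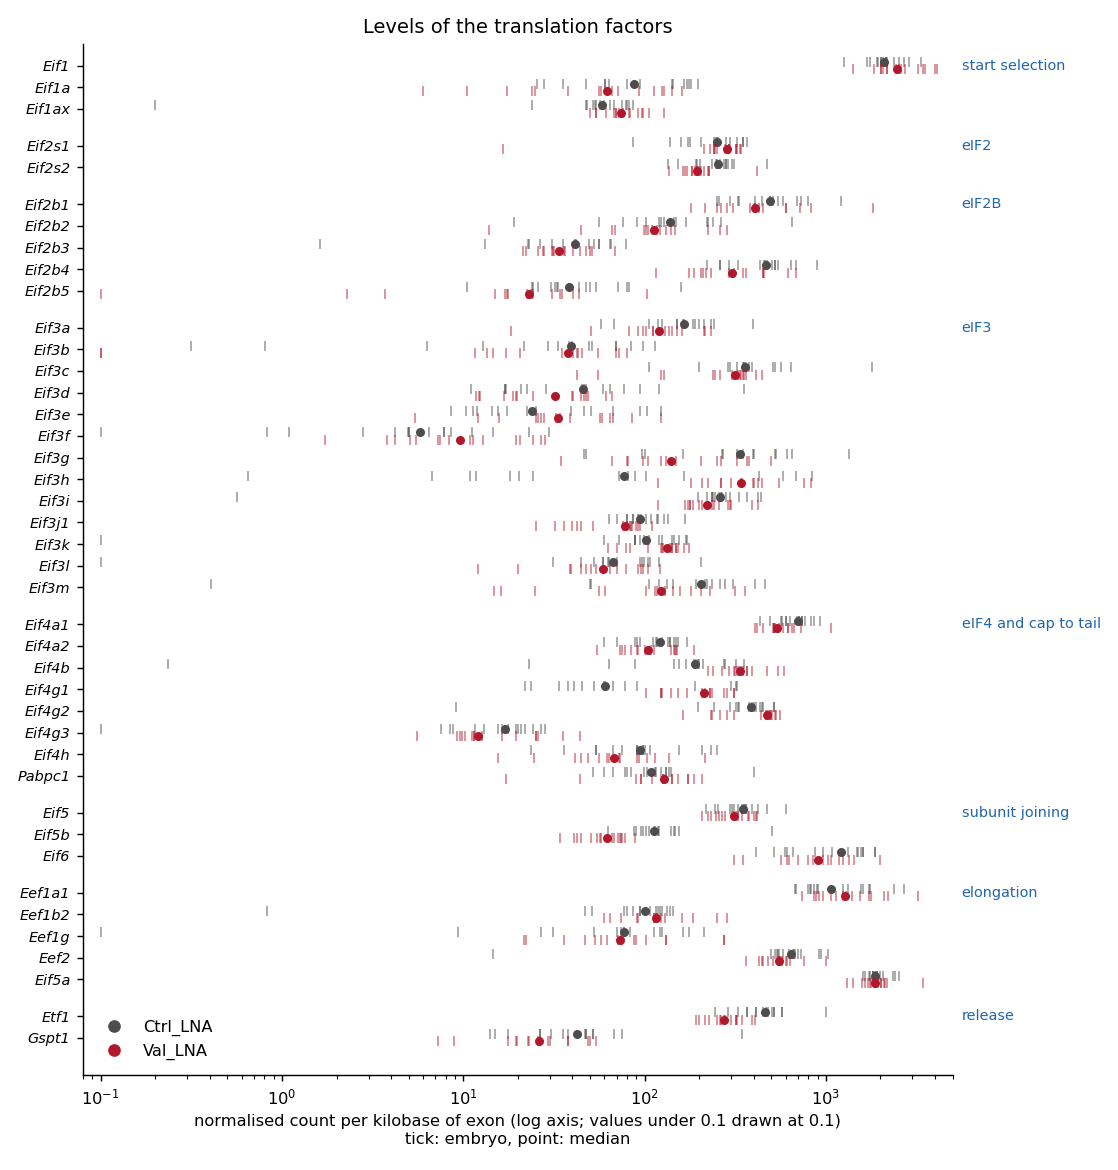
Normalised count per kilobase of annotated exon on a log axis for the 41 factors by role; each tick is 1 embryo and each point the median of 16 embryos, grey for Ctrl_LNA and red for Val_LNA. Eif1, Eif5a, Eef1a1 and Eif6 lie highest and Eif3f lowest, and the groups overlap for every factor.

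Messages of the factors were abundant but unequal. Together the 41 genes took a median of 1.13% of the normalised counts in Val_LNA (0.832% to 1.38%) and 1.19% in Ctrl_LNA (0.842% to 1.38%). These ranges nearly coincide. All 41 were detected in each control except Ctrl_LNA 48, where Eif3f, Eif3k, Eif3l and Eef1g had no read, and 39 to 41 were detected in the Val_LNA embryos. Per kilobase of exon, the highest mean levels were those of Eif1, which keeps the scanning ribosome from starting at the wrong codon, at 2642 ± 798 for Val_LNA and 2181 ± 499 for Ctrl_LNA (SD, n = 16 embryos each). Eif5a, whose product eases peptide bond formation at difficult residues, followed with 1916 ± 475 and 1945 ± 270. Eef1a1, the carrier of aminoacyl-tRNA, had 1441 ± 649 and 1298 ± 616. Next in order came Eif6, which keeps free large subunits apart from small ones, then the RNA helicase gene Eif4a1, and then Eef2, the translocase. Their per-kilobase levels in Ctrl_LNA were 1155 ± 500, 680.01 ± 134, and 637 ± 230 in that order, and their counterparts in Val_LNA were 941 ± 437, 583 ± 156 and 566 ± 149. Neighbours in this order differed by less than the larger of their SDs, except Eif5a and Eef1a1 in Ctrl_LNA. The lowest was Eif3f, an eIF3 subunit, at 12.4 ± 8.7 and 8.30 ± 8.09 per kilobase. The subunits of eIF3 sit in 1 complex, yet their per-kilobase levels in Ctrl_LNA ran from that value up to 465 ± 382 for Eif3c. Lengths are the union of annotated exons, which lowers the level of a gene with long alternative exons.

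None of these 6 most abundant messages passed the test. Eif1 had normalised counts of 2968 to 8599 in Val_LNA (median 5199) and 2629 to 6994 in Ctrl_LNA (median 4413), a log2 fold change of 0.25 (SE 0.14; limma adjusted p = 0.387). Eif5a was the steadiest factor among controls, with a coefficient of variation of 0.139, and its values were 3106 to 8180.1 (median 4423) against 3824 to 6053 (median 4449). Its log2 fold change was -0.04 (SE 0.10; limma adjusted p = 0.858). Group ranges overlapped almost entirely for both. Eef1a1 ranged from 1852 to 8037 in Val_LNA (median 3162) and from 1690.0 to 6764 in Ctrl_LNA (median 2676), with a log2 fold change of 0.17 (SE 0.21; limma adjusted p = 0.706). Eif4a1 ranged from 1769.98 to 4599 (median 2327) against 1871 to 4037 (median 3039), with the control median above 14 of 16 Val_LNA embryos, at a log2 fold change of -0.23 (SE 0.12; limma adjusted p = 0.373). Eif6 spanned 836 to 5382 (median 2446) against 1106 to 5024 (median 3253), at -0.30 (SE 0.24; limma adjusted p = 0.561). For Eef2 the sign of the difference rested on 1 embryo. Its counts were 1202 to 3322 in Val_LNA (median 1832) and 48.3 to 3434 in Ctrl_LNA (median 2129.9), where the lowest value is that of Ctrl_LNA 48 and the next lowest is 1645. The log2 fold change was 0.08 (SE 0.34; limma adjusted p = 0.929) with that embryo and -0.27 (SE 0.13; adjusted p = 0.299) without it.

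Start selection and delivery of the initiator tRNA held no called gene. Beside Eif1, Eif1a and Eif1ax encode eIF1A, the partner of eIF1 in scanning. Eif1ax had values of 262 to 671 in Val_LNA (median 390.1) and 1.05 to 453 in Ctrl_LNA (median 306), with 13 of 16 Val_LNA embryos above the control median and a log2 fold change of 0.81 (SE 0.46; limma adjusted p = 0.407). The control at 1.05 is Ctrl_LNA 48, and without it the log2 fold change was 0.36 (SE 0.17; adjusted p = 0.275). Eif1a had a log2 fold change of -0.77 (SE 0.43; limma adjusted p = 0.393), or -0.70 without Ctrl_LNA 48, so the related genes had differences of opposite sign, neither past the threshold. The eIF2 subunit genes Eif2s1 and Eif2s2 had log2 fold changes of 0.03 and -0.29, and of 0.07 and -0.23 without Ctrl_LNA 48. The 5 genes of eIF2B, the exchange factor that recharges eIF2 with GTP, did not pass, with a median log2 fold change of -0.36 (all genes tested: 0.26) and 4 of 5 values negative, or 5 of 5 without Ctrl_LNA 48 at a median of -0.20 (all genes: 0.07). Eif2b5, the catalytic subunit, had the lowest estimate of all 41 factors. It was at 0 to 269 in Val_LNA (median 60.1) and 27.2 to 413 in Ctrl_LNA (median 99.5), at a log2 fold change of -1.32 (SE 0.53; limma adjusted p = 0.223), or -1.19 (SE 0.52; adjusted p = 0.217) without Ctrl_LNA 48, the highest control.

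**Figure D2:**
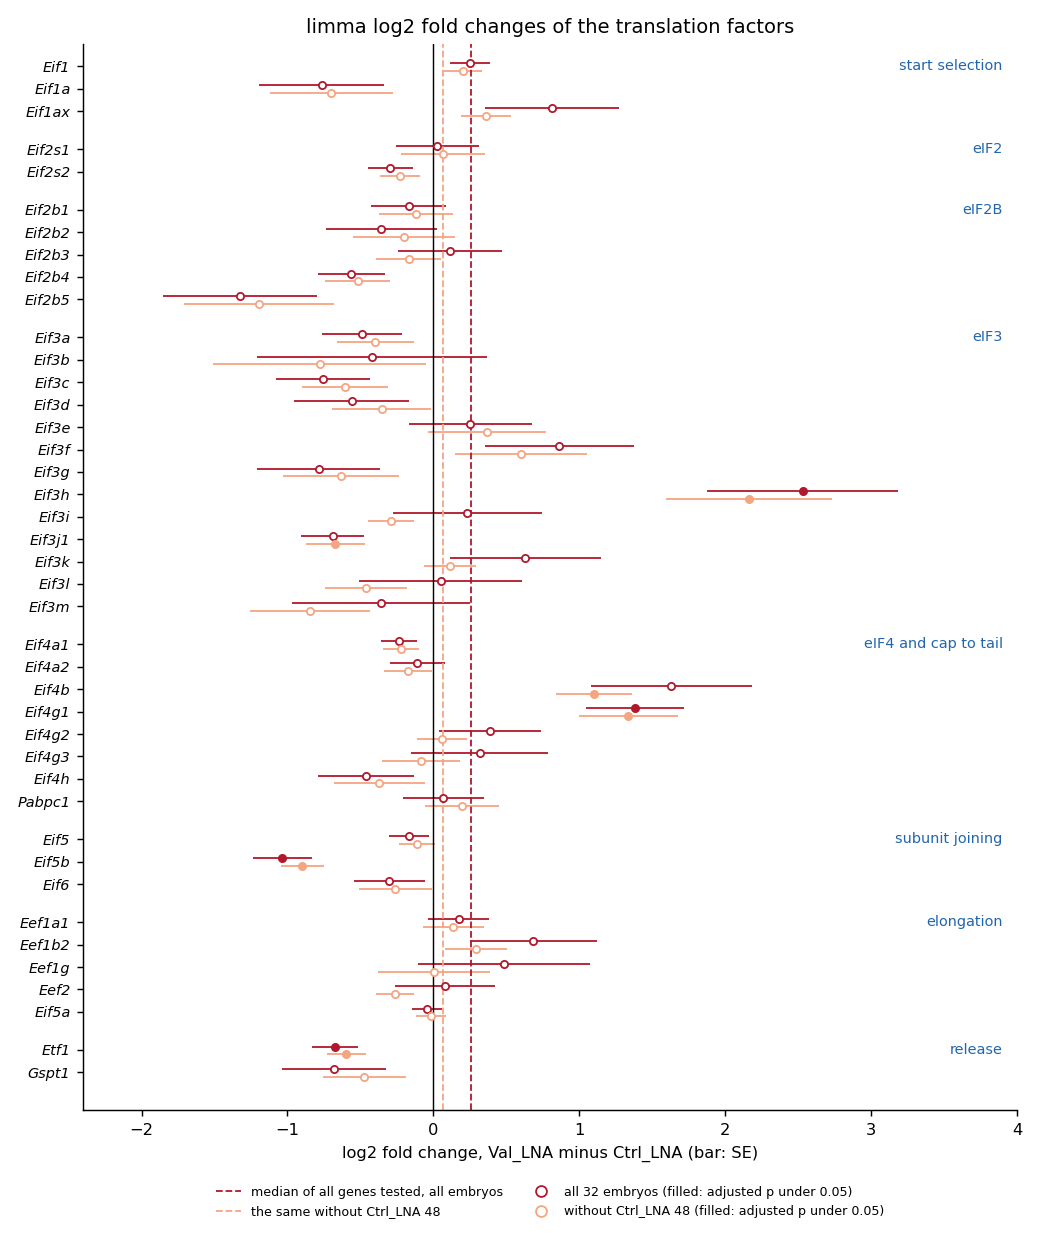
limma log2 fold changes (Val_LNA minus Ctrl_LNA) with SE for the 41 factors by role, in dark red over 32 embryos and in light orange without Ctrl_LNA 48; filled points have an adjusted p under 0.05 and dashed lines mark the median of all genes tested, 0.26 and 0.07. Filled dark points lie left of 0 for Eif5b and Etf1 and right of 0 for Eif4g1 and Eif3h.

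Of the 13 eIF3 genes, Eif3h rose, none fell, and 12 did not pass. The median log2 fold change was -0.36 with 7 of 13 values negative, and -0.40 with 9 of 13 negative and Eif3j1 called lower once Ctrl_LNA 48 was left out. Apart from Eif3h the values ran from -0.79 (Eif3g) to 0.86 (Eif3f). Eif3c, a core subunit that contacts the start selection factors, reached an unadjusted p of 0.0238 at -0.76 (limma adjusted p = 0.26).

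Eif3h encodes a subunit of the part of eIF3 that is not needed for every message (chromosome 15, 51786558 to 51865523, minus strand, mm10). Its normalised counts were 191 to 1340.2 in Val_LNA (median 549.9) and 1.05 to 1354 in Ctrl_LNA (median 124). All 16 Val_LNA embryos lay above the control median, and 11 of 16 controls lay below every Val_LNA embryo. The groups still overlapped, because Ctrl_LNA 44, 46, 47 and 49 had 692, 937, 1354 and 1099. The means were 608 ± 316 and 316 ± 444 (SD, n = 16 each), and the log2 fold change was 2.53 (SE 0.66; limma adjusted p = 0.029), or 2.16 (SE 0.57; adjusted p = 0.0203) without Ctrl_LNA 48. Tests on the recovered reads gave a smaller difference that did not pass: edgeR 0.86 (adjusted p = 0.642) and DESeq2 0.94 (adjusted p = 0.413). The limma call was also lost without Ctrl_LNA 37, 38 or 43, with an adjusted p of up to 0.0523.

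Eif3j1 encodes eIF3j, a loosely held subunit that also acts when ribosomes are recycled (chromosome 2, 122028546 to 122056598, plus strand, mm10). Its values were 146 to 643 in Val_LNA (median 456) and 369 to 977 in Ctrl_LNA (median 552). The ranges overlapped, but the control median was above 15 of 16 Val_LNA embryos, and 7 of these were below every control. The log2 fold change was -0.69 (SE 0.22; limma adjusted p = 0.0905), and -0.67 (SE 0.20; adjusted p = 0.0486) without Ctrl_LNA 48. edgeR gave -0.65 (adjusted p = 0.198) and DESeq2 -0.60 (adjusted p = 0.0633), neither past the threshold. Without that embryo they gave -0.63 (adjusted p = 0.155) and -0.62 (adjusted p = 0.0623), again not past it. Mice carry a near-identical copy, Eif3j2, whose reads may be shared with Eif3j1 in counting, and its log2 fold change was -0.64 (SE 0.24; limma adjusted p = 0.19). Across embryos the copies tracked each other closely. In Val_LNA Pearson's r was 0.975 and Spearman's rho 0.974, and in Ctrl_LNA 0.936 and 0.929 (n = 16 each; permutation p = 2e-05 for each, the smallest that 100000 resamples can give, and 2e-05 after adjustment over the 2 relations). Without the 2 embryos farthest from the median, r was 0.964 and 0.913, and within the lower and upper runs of library numbers in the labels it was 0.972 and 0.98 in Val_LNA and 0.963 and 0.962 in Ctrl_LNA. These p-values cannot tell a relation between 2 messages from shared reads, so how far the pair gives separate signals is uncertain. Annotated exons of Eif3j1 also share 1107 bases with Spg11 on the opposite strand, and strand was not marked.

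**Figure D3:**
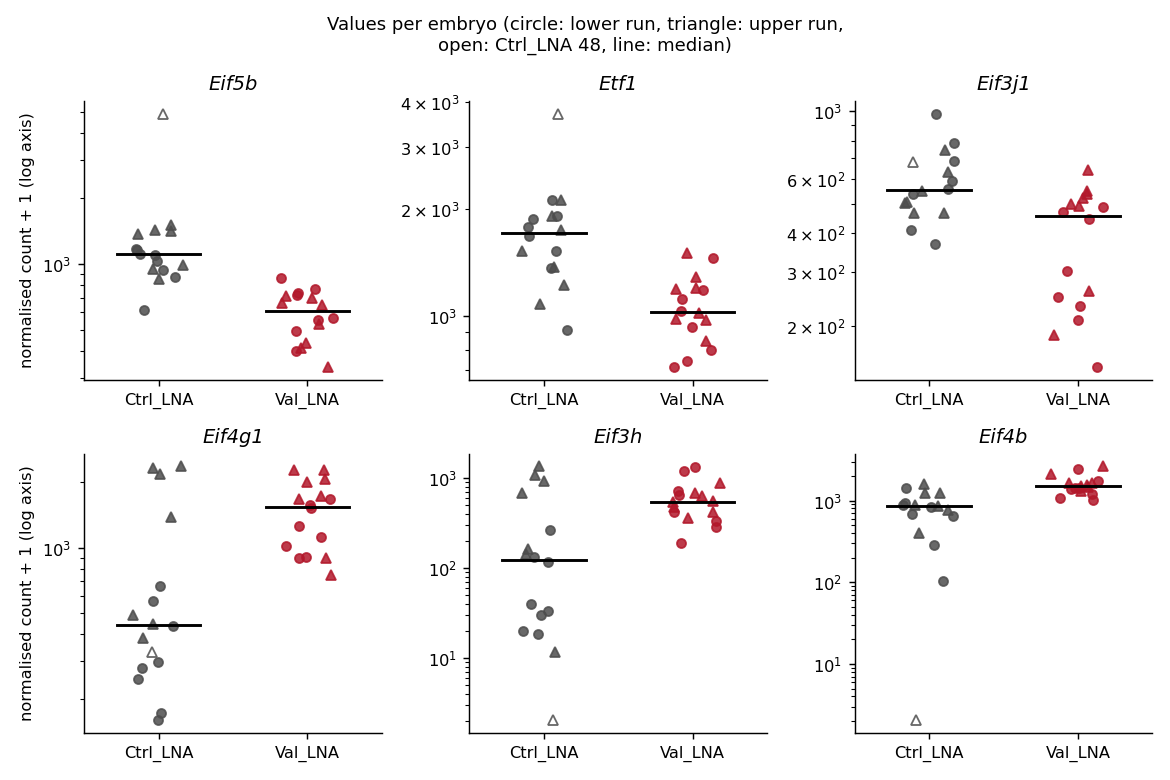
Normalised count + 1 per embryo on log axes for the 6 factors called in at least 1 analysis; circles are the lower and triangles the upper runs of library numbers, the open symbol is Ctrl_LNA 48 and lines are medians of 16. Val_LNA lies low for Eif5b, Etf1 and Eif3j1 and high for Eif4g1, Eif3h and Eif4b, with overlap in all 6.

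Of the 8 genes that act between the cap and the tail, Eif4g1 rose and 7 did not pass, with a median log2 fold change of 0.19, or -0.02 without Ctrl_LNA 48. Eif4g1 encodes the scaffold that binds the cap-binding protein, the eIF4A helicase and the poly(A)-binding protein (chromosome 16, 20668313 to 20692884, plus strand, mm10). Its normalised counts were 745 to 2286 in Val_LNA (median 1546) and 159 to 2369 in Ctrl_LNA (median 439). All 16 Val_LNA embryos lay above the control median and 12 controls lay below every Val_LNA embryo. The remaining controls were the same 4 that were high for Eif3h: Ctrl_LNA 44, 46, 47 and 49, with 2197, 1385, 2338 and 2369. Means were 1478 ± 517 and 797 ± 799 (SD, n = 16 each). The log2 fold change was 1.38 (SE 0.34; limma adjusted p = 0.0166), and 1.34 (SE 0.34; adjusted p = 0.0147) without Ctrl_LNA 48. edgeR gave 0.79 (adjusted p = 0.416) and DESeq2 0.89 (adjusted p = 0.144), neither past the threshold, and centring each embryo on its median gene gave 0.93 (limma adjusted p = 0.389), or 1.27 (adjusted p = 0.0401) without Ctrl_LNA 48.

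**Figure D4:**
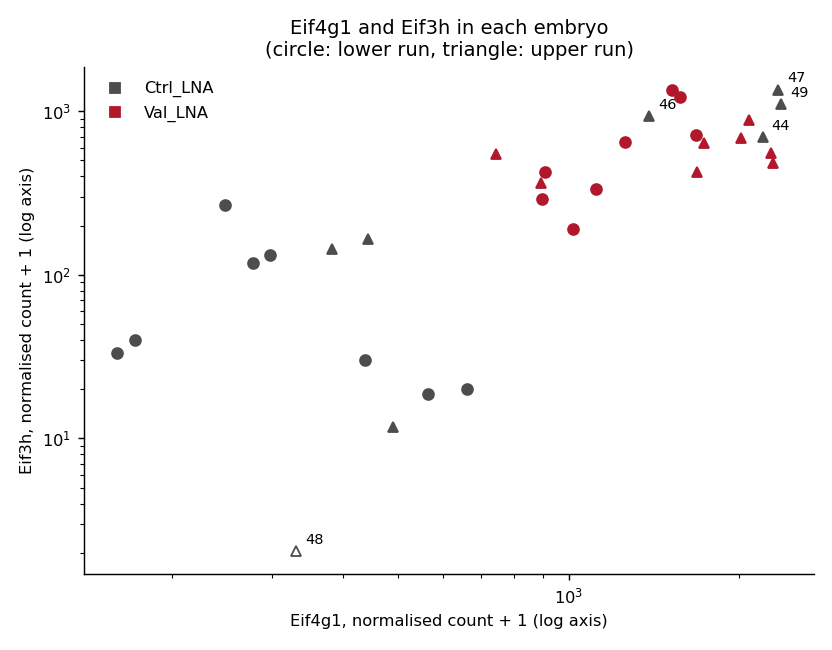
Eif4g1 (horizontal) against Eif3h (vertical), normalised count + 1 on log axes, 1 symbol per embryo; circles are the lower and triangles the upper runs of library numbers. Controls 44, 46, 47 and 49, all triangles, lie among the red Val_LNA embryos for both genes, and control 48 lies lowest for Eif3h.

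Eif4b encodes eIF4B, a cofactor of the eIF4A helicase (chromosome 15, 102073773 to 102097173, plus strand, mm10). It had 1001 to 2615 normalised counts in Val_LNA (median 1496) and 1.05 to 1570.4 in Ctrl_LNA (median 852). All 16 Val_LNA embryos were above the control median, and 12 controls were below every Val_LNA embryo. Ctrl_LNA 48 was the control at 1.05, the next lowest being 103. The log2 fold change was 1.63 (SE 0.55; limma adjusted p = 0.127) with it and 1.10 (SE 0.26; adjusted p = 0.00879) without it. DESeq2 without this embryo gave 0.82 (adjusted p = 0.0228), where 1.95% of the 13749 genes with an adjusted p were called higher. In edgeR over all embryos it was 0.87 (adjusted p = 0.331). The helicase gene Eif4a2, the second scaffold gene Eif4g3, the cofactor gene Eif4h and the poly(A)-binding protein gene Pabpc1 had log2 fold changes of -0.11, 0.32, -0.46 and 0.07, and of -0.17, -0.09, -0.37 and 0.20 without Ctrl_LNA 48, so the sign for Eif4g3 rested on that embryo. Eif4g2, which encodes a shorter relative of the scaffold that lacks the site for the cap-binding protein, was at 0.39 with it and 0.06 without it.

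Subunit joining held the call with the smallest p. Eif5b encodes the GTPase that joins the large ribosomal subunit (chromosome 1, 37998010 to 38055579, plus strand, mm10). Its normalised counts were 334 to 862 in Val_LNA (median 605) and 611 to 4893 in Ctrl_LNA (median 1106). Each Val_LNA embryo was below the control median, 14 of 16 controls were above every Val_LNA embryo, and the groups overlapped through 2 controls. The means were 594 ± 152 and 1337 ± 979 (SD, n = 16 each), or 1099 ± 250 (n = 15) in controls without Ctrl_LNA 48, which held the highest value. The log2 fold change was -1.03 (SE 0.20; limma adjusted p = 0.00194), and -0.90 (SE 0.15; adjusted p = 0.000156) without that embryo. edgeR gave -1.26 (adjusted p = 0.00107) and DESeq2 -1.17 (adjusted p = 3.18e-05). Centring on the median gene gave -1.48 with an adjusted p of 0.145, and -0.97 (adjusted p = 0.000233) without that embryo. Annotated exons of Eif5b share 1643 bases with Rev1 on the opposite strand, and strand was not marked. Eif5, the GTPase activator of eIF2, and Eif6 had log2 fold changes of -0.17 and -0.30 and did not pass.

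Among the 5 elongation genes none was called by limma with or without Ctrl_LNA 48, and none of them had an unadjusted p under 0.05 in those 2 fits. Eef2 was at 0.0501 in limma without that embryo, and edgeR and DESeq2 without it gave unadjusted p of 0.00763 and 0.00916 (adjusted p = 0.16 and 0.117). Eef1b2 and Eef1g, subunits of the exchange factor that recharges eEF1A, were at 0.68 (SE 0.43; limma adjusted p = 0.456) and 0.48 (SE 0.59; adjusted p = 0.708). These estimates were 0.29 and 0.01 without Ctrl_LNA 48, where Eef1b2 had 2.1 counts and Eef1g none.

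Both release factor genes had negative differences, and Etf1 fell. Etf1 encodes eRF1, which reads the stop codon. Its normalised counts were 712 to 1499.6 in Val_LNA (median 1020.2) and 909.9 to 3713 in Ctrl_LNA (median 1707). Each of the 16 Val_LNA values was under the control median, and 11 controls lay above every Val_LNA embryo. The means were 1057 ± 233 and 1737 ± 635 (SD, n = 16 each), and the log2 fold change was -0.67 (SE 0.16; limma adjusted p = 0.0118), or -0.60 (SE 0.14; adjusted p = 0.00569) without Ctrl_LNA 48. edgeR gave -0.80 (adjusted p = 0.00848) and DESeq2 -0.72 (adjusted p = 0.00122). After centring on the median gene the adjusted p was 0.257 at -1.12, and 0.011 at -0.66 without Ctrl_LNA 48. Gspt1, which encodes eRF3, the GTPase partner of eRF1, had 39.5 to 292 in Val_LNA (median 142) and 75.7 to 1878 in Ctrl_LNA (median 229.8). Its log2 fold change was -0.68 (SE 0.36; limma adjusted p = 0.366). The highest control was Ctrl_LNA 48, and without it the highest was 407 and the log2 fold change -0.47 (SE 0.28; adjusted p = 0.412).

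Signs of small differences depended on Ctrl_LNA 48 and on the scaling. The median log2 fold change was -0.11 over the 41 factors and 0.26 over all genes tested, with 22 of 41 factors negative (35.7% of all genes). Without Ctrl_LNA 48 these medians were -0.20 and 0.07, with 27 of 41 negative (45.8% of all genes). The sign had turned for Eif2b3, Eif3i, Eif3l, Eif4g3 and Eef2. In Ctrl_LNA 48, 68.6% of all genes tested had values below 3. After centring on the median gene the medians were -0.27 and -0.0004 without that embryo, and -0.56 and -0.19 over all 32 embryos. With centring over all 32 embryos, 33 of 41 factors were negative (61% of all genes). Centring left 1 factor called higher (Eif3h; 0.392% of all genes) and 0 lower (1.93%), and it moved the calls over all genes from 137 higher and 204 lower to 61 and 300. Count-based tests over all 32 embryos called the same lower pair, Eif5b and Etf1, and 0 higher factors, at background shares of 1.05% lower and 0.186% higher in edgeR and 2.09% and 1.21% in DESeq2. Without Ctrl_LNA 48 edgeR called 0 factors higher (0.54%) and the same 2 lower (1.61%), DESeq2 called Eif4b higher (1.95%) and the same 2 lower (2.92%), and the centred limma fit called Eif3h, Eif4b and Eif4g1 higher (1.2%) and the same 2 lower (2.78%). The DESeq2 shares without Ctrl_LNA 48 are of the 13749 genes that had an adjusted p in that fit. In edgeR over all embryos 11 factors had an unadjusted p under 0.05. The share of all genes was not counted in that edgeR fit, so this number cannot be read as an excess. No factor had groups that did not overlap, against 5 of all genes tested (0.0321%), or 7 (0.045%) without Ctrl_LNA 48.

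The library numbers in the labels form a lower and an upper run in each group, which the labels do not call batches: Val_LNA 1 to 8 and 13 to 20, and Ctrl_LNA 31 to 38 and 43 to 50. In the lower runs limma called Eif4g1 and Eif3h higher (0.623% of all genes) and 0 factors lower (0.533%). In the upper runs it called 0 factors (0.225% of all genes), and without Ctrl_LNA 48 Eif5b lower (0.797%) and 0 factors higher (0.045%). Eif5b had log2 fold changes of -0.67 (limma adjusted p = 0.163) in the lower runs and -1.15 (adjusted p = 0.016) in the upper runs without Ctrl_LNA 48. For Etf1 they were -0.72 (adjusted p = 0.118) and -0.47 (adjusted p = 0.3). Eif4g1 had 1.95 (adjusted p = 0.0019) and 0.60 (adjusted p = 0.559), and Eif3h had 3.31 (adjusted p = 0.00463) and 0.84 (adjusted p = 0.65). The lower controls held 159 to 662 counts of Eif4g1 and 17.6 to 266 of Eif3h, whereas the upper controls spanned 329.8 to 2369 and 1.05 to 1354. The 4 high controls were all in the upper run. The difference between runs did not pass for any factor in limma's interaction test (0 of 15559 genes passed). At an unadjusted p under 0.05 it was reached by 0 of 41 factors and 808 of 15559 genes. Without Ctrl_LNA 48 these were 920 of 15559 genes and 4 of 41 factors, Eif3f, Eif3h, Eif4g1 and Eif4g2. The adjusted p of these 4 were 0.803, 0.811, 0.811 and 0.831, so none is a call. Between the runs, 32 of 41 factors kept the sign of the difference without Ctrl_LNA 48, against 61.1% of all genes.

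**Figure D5:**
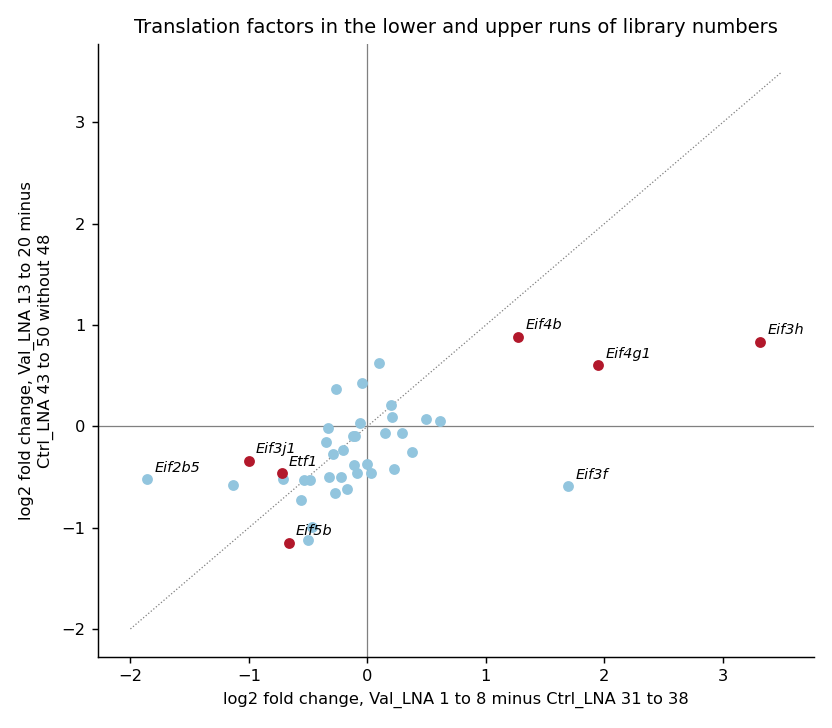
log2 fold change of each of the 41 factors in the lower runs of library numbers (horizontal) against the upper runs without Ctrl_LNA 48 (vertical); the dotted line marks equal values and red points are the 6 factors called in at least 1 analysis. Eif5b, Etf1 and Eif3j1 are negative in both, Eif4b, Eif4g1 and Eif3h are positive in both, and Eif3f changes sign.

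Many elongation factor messages, and some of initiation factors, begin with a terminal oligopyrimidine (TOP) tract, a C followed by pyrimidines at the cap, through which growth signals control their translation. From general knowledge, 9 of the 41 factors carry it: Eef1a1, Eef1b2, Eef1g, Eef2, Pabpc1, Eif3e, Eif3f, Eif3h and Eif4b. Their log2 fold changes were positive for 9 of 9, with a median of 0.48 (all genes: 0.26, with 35.7% negative). After centring on the median gene 5 of 9 were positive, with a median of 0.03 (all genes: -0.19, with 61% negative). The median of the 9 thus lay 0.22 above that of all genes in both fits. Before centring, the other 32 factors had a median of -0.30, with 22 negative. Eif3h was the called gene among the 9. Without Ctrl_LNA 48, 8 of 9 were positive with a median of 0.29 (all genes: 0.07, with 45.8% negative). Of the other 32, 26 were negative with a median of -0.28. In edgeR the median of the 9 was 0.06 with all genes at 0.04. In the lower runs it was 0.50 with all genes at 0.03, and in the upper runs without Ctrl_LNA 48 it was 0.07, equal to that of all genes.

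Sequences around the annotated start were available for 31 of the 41 factors (RefSeq, GRCm38.p6). A C followed by at least 4 C or T, on the gene's strand within 15 bases of the start, was present in 10 of 31 (32.3%) and in 40.9% of all 32851 promoter entries. The share for the factors counts a gene with such a stretch in any of its entries, whereas that for all promoters counts single entries. Such a stretch was present in 4 of the 5 TOP factors with an entry. The RefSeq start of Eif4g1 lies inside the span given above from GENCODE, which begins with a start further upstream. The windows below run from 30 bases before to 30 bases after the start, 5′ to 3′, and capitals mark each tract. They show 2 factors known as TOP messages, Eif4b and Eef2, beside the called factors Eif4g1 and Eif5b. Eif4g1 has such letters without being known as a TOP message, and Eif5b has none. No marked stretch of Eif4b or Eef2 covers the annotated start. Those of Eif4b lie before and after it, and that of Eef2 lies after it. Whether these stretches are the TOP tracts at the cap was not tested. In Eif3f, a known TOP message whose window is not printed, the stretch spans the start.
Eif4b, chr15:102073743-102073802, plus strand: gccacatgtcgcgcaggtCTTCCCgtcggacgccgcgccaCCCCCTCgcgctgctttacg
Eef2, chr10:81176601-81176660, plus strand: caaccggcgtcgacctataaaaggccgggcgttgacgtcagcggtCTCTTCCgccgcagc
Eif4g1, chr16:20672697-20672756, plus strand: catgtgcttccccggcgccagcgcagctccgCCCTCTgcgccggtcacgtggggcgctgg
Eif5b, chr1:37997980-37998039, plus strand: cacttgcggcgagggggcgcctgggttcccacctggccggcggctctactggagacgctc

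A wider list held 53 translation genes outside the 41, of which 47 were tested. Among these, 1 was called higher, Jmjd4 (0.881% of all genes tested were), and 1 lower, Dph6 (1.31%). The list covers cap-binding proteins and their inhibitors, eIF2 kinases, further poly(A)-binding and elongation proteins, enzymes that modify eEF2 and eIF5A, and release and recycling factors. The median log2 fold change of the 47 was 0.21, and 0.04 without Ctrl_LNA 48. Jmjd4 hydroxylates eRF1, the product of Etf1. Its values were 44.9 to 348 in Val_LNA (median 167) and 0 to 193 in Ctrl_LNA (median 52.9), with 14 of 16 Val_LNA embryos above the control median and a log2 fold change of 2.49 (SE 0.66; limma adjusted p = 0.0329). Dph6 acts in the synthesis of diphthamide, the modified histidine of eEF2. It was low, at 0 to 73.3 in Val_LNA (detected in 7 of 16) and 0 to 88.9 in Ctrl_LNA (detected in 15 of 16), with a log2 fold change of -2.78 (SE 0.70; limma adjusted p = 0.0233). edgeR and DESeq2 called neither, with adjusted p of 0.243 and 0.0604 for Jmjd4 and 0.422 and 0.328 for Dph6. Without any 1 of 9 embryos Jmjd4 lost its limma call, with an adjusted p of up to 0.0576. Among regulators of initiation, 0 of 6 genes of eIF2 kinases and phosphatase subunits and 0 of 5 genes of cap binding and its inhibitors passed in limma. DESeq2 without Ctrl_LNA 48 called 2 other genes of the wider list, the eIF2 kinase gene Eif2ak1 at -0.43 (adjusted p = 0.0108; limma without that embryo 0.0647) and Hbs1l, a ribosome rescue factor, at 0.99 (adjusted p = 0.0357; limma without that embryo 0.0857). Jmjd4 was not called in that DESeq2 fit. Eif2ak1 and Hbs1l were named after their values were seen.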

How the data were processed

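Per the labels' protocols, poly(A) RNA of single embryos was reverse transcribed with template switching, amplified by PCR and tagmented. PCR copies count as reads, since the protocol has no molecular identifiers, and it does not mark the RNA strand. The submitters' processing notes name Bowtie2, STAR, SAMtools and DESeq2 with mm10, without versions or roles, and their annotation was likewise not given in the sources used here. Deposited by the authors were a signal per gene and embryo, counts divided by DESeq size factors, and the size factors as a score per embryo, per the file headers. Multiplying them gave whole reads for 1095136 of 1095136 values (100%; largest distance 0.0086), which gave the depths and entered the count tests.

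The 41 members, the lists and the alternatives were chosen with earlier results of these data known. limma 3.58.1 (trend and robust, R 4.3.3) was fitted to log2(normalised count + 1) over the 15559 genes with at least 10 in at least 8 of 32 embryos. edgeR 4.0.16 (quasi-likelihood) and DESeq2 1.42.0 used the recovered reads. The limma and edgeR fits were checked on simulated data, and the DESeq2 fits were not. Full values are given for members called in limma, edgeR or DESeq2, with or without Ctrl_LNA 48, and for the 6 highest per kilobase, plus other translation genes called in limma. Values quoted for other members show their role group. Positions and lengths are from GENCODE M21 (34179 of 34223 identifiers matched). Correlations used scipy 1.17.1.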

Additional observations from a re-analysis of the deposited data

How the results depend on the processing

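Beside the 2 factors called higher, the count was 3 without Ctrl_LNA 48 in limma and 1 to 3 over all fits that left out 1 embryo. It was 0 in edgeR, edgeR without Ctrl_LNA 48, DESeq2, the upper runs and the upper runs without Ctrl_LNA 48, and 1 in DESeq2 without Ctrl_LNA 48, after centring and with no filter. The 2 called lower became 0 after centring, in the lower runs and in the upper runs, and 1 with no filter and in the upper runs without Ctrl_LNA 48, with 2 to 3 over the fits leaving out 1 embryo. Runs alone hold fewer embryos. For the other translation genes, the 1 called higher became 0 in edgeR with and without Ctrl_LNA 48, DESeq2, the centred fit, the fit with no filter, the lower runs and the upper runs with and without Ctrl_LNA 48 (0 to 1 leaving out 1 embryo). In DESeq2 without Ctrl_LNA 48 it was Hbs1l in place of Jmjd4. The 1 called lower became 0 in edgeR with and without Ctrl_LNA 48, DESeq2, the lower and the upper runs, and 4 with array weights (1 to 1 leaving out 1 embryo). The share of all genes called lower with array weights is not given here, so these 4 cannot be read as an excess. The median log2 fold change of the factors, -0.11, moved to -0.56 after centring, or -0.27 centred without Ctrl_LNA 48. It was -0.34 in the upper runs without Ctrl_LNA 48, and ranged from -0.20 to -0.04 leaving out 1 embryo. Signs turned for Eif1 (-0.20) and Eef1a1 (-0.28) after centring, but not when centred without Ctrl_LNA 48 (0.13 and 0.07). For Eif5a the sign turned (0.035) in the upper runs without Ctrl_LNA 48. Eef2, at 0.08, became -0.27 without Ctrl_LNA 48 (-0.27 to 0.14 leaving out 1 embryo), -0.17 in DESeq2, -0.32 in DESeq2 without Ctrl_LNA 48, -0.26 in edgeR, -0.34 in edgeR without Ctrl_LNA 48, -0.045 in limma-voom, -0.0074 with TMM scaling, -0.28 with array weights, -0.37 centred, -0.33 centred without Ctrl_LNA 48, -0.35 in the lower runs and -0.16 in the upper runs without Ctrl_LNA 48. The cause of these moves was not tested. Eif5b, Etf1 and Eif4g1 kept their calls in all 32 fits that left out 1 embryo, with adjusted p of 0.000156 to 0.00412, 0.00465 to 0.0226 and 0.00459 to 0.0317. Fits centred without Ctrl_LNA 48 and within the upper runs without it were chosen after seeing the data. No paired analysis was possible because the groups share no replicate number. Dropouts of single-embryo libraries limit low genes such as Eif3f and Dph6.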
